A study of Mus musculus with 8 samples.

Results

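The genes of cholesterol synthesis and sterol handling were examined in sorted intestinal tuft cells. The 28 members were taken by name, for the known role of their products in making, sensing or moving cholesterol, from the 35199 genes of the count table. They comprise 5 genes of the sterol-sensing transcription factors and their partners, 19 enzymes between acetyl-CoA and cholesterol, and 4 genes of sterol handling. All 28 had counts, and all 28 were among the 12849 genes with enough counts to be tested.

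Dclk1-DTR-ZSgreen mice, which carry a bacterial artificial chromosome with a DTR and ZSgreen cassette in Dclk1, received scopolamine, a nonselective blocker of muscarinic acetylcholine receptors, at 0.5 mg/kg per day from osmotic pumps for 7 days. Sham mice of the same transgenic line received sodium chloride. Pumps were implanted at 8 to 10 weeks of age. The line was made in CBA × C57BL/6J oocytes and then backcrossed to C57BL/6J. The study states for its mice in general that both sexes were used. Live, EpCAM-high, ZSgreen-positive cells were sorted from the jejunum. Bulk RNA sequencing was done on 4 scopolamine and 4 sham libraries, each from 1 mouse, to ask whether muscarinic blockade changes the transcriptome of tuft cells. The ZSgreen signal marks cells in which the Dclk1 transgene is active, and the transgene with its diphtheria toxin receptor was present in both groups.

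Cells make cholesterol from acetyl-CoA by way of mevalonate, farnesyl diphosphate, squalene and lanosterol. When sterols in the endoplasmic reticulum are low, the escort protein SCAP carries the membrane-bound factor SREBP2 to the Golgi, where proteases release its active part, which then turns on the genes of the whole route; when sterols are high, INSIG proteins hold SCAP back. The activity of SREBP2 is thus set largely by cleavage of the protein, which RNA counts do not measure, while the intestinal epithelium as a whole both makes cholesterol and absorbs it from the lumen.

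Total counts were 20327680, 20244608, 14343362 and 20857433 in scopolamine replicates 1 to 4 and 25769940, 40426059, 41428916 and 35391538 in sham replicates 1 to 4. Every scopolamine library was thus shallower than every sham library (exact permutation test, two-sided, p = 0.0286 over 70 assignments, the smallest p this design allows), so an effect of depth and one of treatment would look alike here. Sham replicates 1 and 3 were in addition made from 200 pg of RNA with 15 cycles of cDNA amplification, whereas the other 6 libraries were made from 1000 pg with 10 cycles. Replicate 1 of each group came from 3000 sorted cells and the other 6 libraries from 4000. The mouse IDs carry the letter M in scopolamine replicates 1 to 3 and sham replicate 1 and the letter N in the other 4 libraries, so the letter largely goes with treatment. Levels are given below in CPM, which expresses the counts of a gene as a share of those of its library, after scaling between libraries by the trimmed mean of M-values (TMM).

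The sorted cells carried the RNA of tuft cells in both groups. Dclk1, which encodes the kinase whose locus drives the reporter, ranged from 3440 to 5730 CPM over the 8 libraries. Trpm5, the cation channel of chemosensory cells, ranged from 968 to 1740 CPM, and Pou2f3, the transcription factor required for the tuft lineage, from 196 to 610 CPM.

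The sterol genes had counts in all 8 libraries, though Mylip had only 1 count in sham replicate 3. The 28 members did not pass the test for a change with scopolamine. In edgeR's quasi-likelihood test, 0 of the 28 members had a Benjamini-Hochberg adjusted p under 0.1, where 0% of all 12849 genes tested did, and the adjusted p of the members ranged from 0.812 to 0.999. Over all genes, 770 passed an unadjusted p under 0.05, of which 428 were higher and 342 were lower with scopolamine. DESeq2 was run on the 21805 genes with a count, with its own scaling and filter. It called 190 genes at an adjusted p under 0.1, 142 higher and 48 lower, with 0 members among them. On the 12849 genes, limma-voom called 0. At the unadjusted threshold, 0 members were higher, against 3.33% of all genes, and 0 were lower, against 2.66% of all genes. The log2 fold change, scopolamine over sham, was positive for 16 members and negative for 12, with a median of 0.03 beside −0.01 over all genes tested. In these bulk libraries, fewer cells of a type and less RNA per cell cannot be told apart.

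How tightly these values bound a change differed between members. The 95% interval of the log2 fold change lay between −1 and 1 for 20 of the 28 members, that is, a change past 2-fold lay outside it, and this held for 15 of the 19 enzymes. The same was true of 4783 of all 12849 genes, and of 2331 of the 3004 genes whose mean CPM lay between the quartiles of the members' CPM. For Insig1, Hsd17b7, Ggps1, Stard4, Mylip, Scap, Lss and Dhcr7 the interval reached past 2-fold in at least 1 direction.

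**Figure D1:**
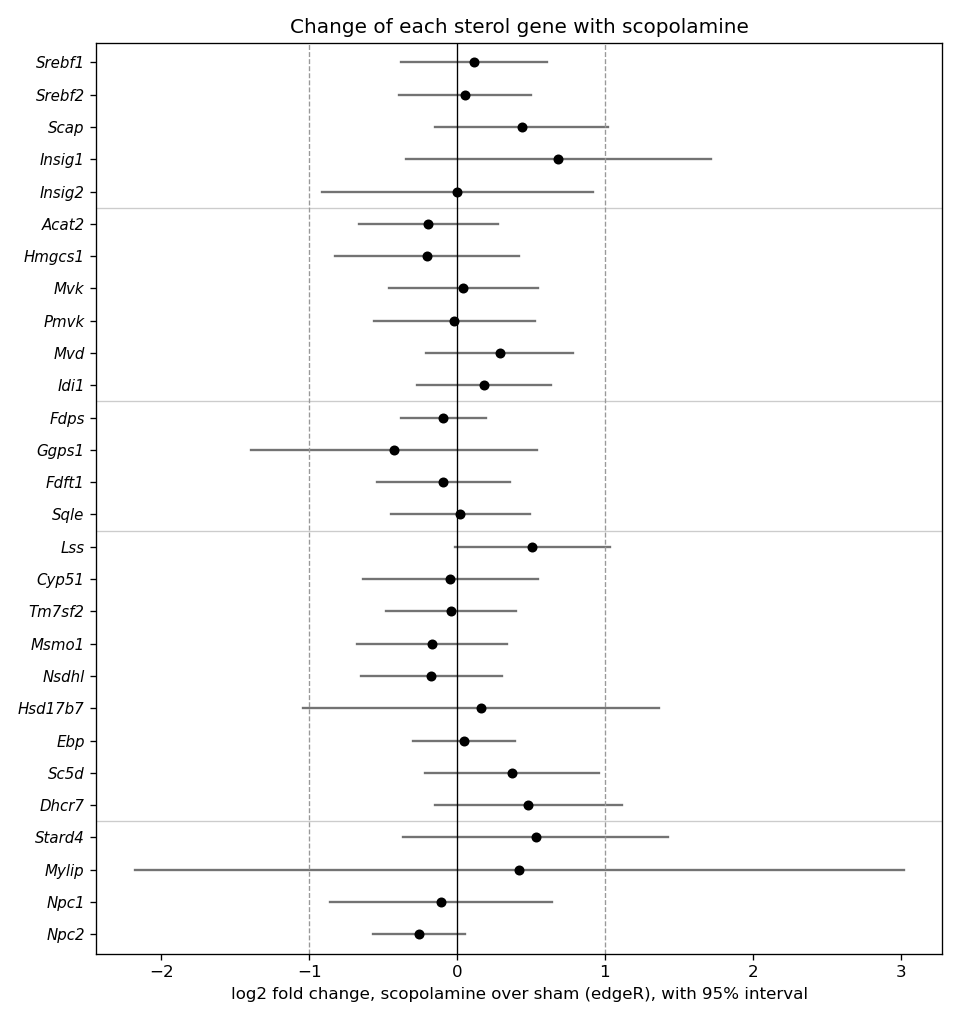
Log2 fold change of each of the 28 sterol genes, scopolamine over sham (horizontal axis), from edgeR with 4 libraries per group; points are the estimates, horizontal bars the 95% intervals, dashed lines a 2-fold change either way, and grey lines separate the roles. All 28 intervals include 0, and the estimates run from −0.43 for Ggps1 to 0.69 for Insig1.

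Among the sensing genes, Srebf2, which encodes SREBP2, was at 224, 230, 366 and 211 CPM in scopolamine replicates 1 to 4 and at 198, 278, 275 and 243 CPM in sham replicates 1 to 4. The groups overlapped throughout, with scopolamine replicate 3 above the other 7 libraries and sham replicate 1 below them. The log2 fold change was 0.05 (standard error (SE) 0.20, edgeR adjusted p = 0.989), and it turned to −0.17 without scopolamine replicate 3, to −0.05 without sham replicate 1 and to −0.04 without the sham libraries of lower input. Srebf1, whose products SREBP1a and SREBP1c act mainly on fatty acid genes, ranged from 80.3 to 98.6 CPM with scopolamine and from 55.6 to 116 CPM in sham libraries, a log2 fold change of 0.12 (SE 0.22) that also turned negative, −0.16, without the libraries of lower input.

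Scap, the gene of the escort protein, was at 54.5, 63.4, 63.4 and 63.6 CPM with scopolamine and at 37.4, 61.9, 26.1 and 55.5 CPM in the sham libraries. The low sham values were those of replicates 1 and 3, the libraries of lower input, while the other sham libraries lay within the scopolamine range. Its log2 fold change of 0.44 (SE 0.27, edgeR adjusted p = 0.829) became 0.04 without those libraries. The part of RNA input in this difference cannot be told apart from that of the mice in those libraries.

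Insig1, which encodes a retention protein of SCAP and is itself a target of SREBP2, was at 25.1, 38.1, 8.62 and 41.9 CPM with scopolamine and ranged from 11.7 to 26.5 CPM in the sham libraries. Scopolamine replicates 2 and 4 lay above every sham library and scopolamine replicate 3 lay below every one of them. The log2 fold change of 0.69 (SE 0.47, edgeR adjusted p = 0.851) was the highest of the 28, with a 95% interval from −0.35 to 1.72. Insig2, the related retention protein that SREBP2 does not induce, ranged from 13.8 to 26.4 CPM with scopolamine and from 8.34 to 29.4 CPM in sham libraries. Its log2 fold change of 0.00 became 0.62 with the letter of the mouse ID as a covariate and −0.24 without the sham libraries of lower input.

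The 6 enzymes from acetyl-CoA to isopentenyl diphosphate had log2 fold changes from −0.20 to 0.29, 3 positive and 3 negative. Hmgcs1, the synthase that makes HMG-CoA, was at 136, 104, 157 and 109 CPM with scopolamine and at 154, 141, 212 and 74.8 CPM in the sham libraries. The sham group held both its highest and its lowest value, in replicates 3 and 4, and enclosed the scopolamine group. Its log2 fold change of −0.20 (SE 0.28, edgeR adjusted p = 0.932) turned to 0.21 without the sham libraries of lower input.

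Acat2, the cytosolic thiolase that joins acetyl-CoA units, ranged from 53.9 to 105 CPM with scopolamine and from 76.9 to 94.4 CPM in sham libraries. Mvk, which phosphorylates mevalonate, ranged from 50.2 to 61.7 CPM with scopolamine and from 35.4 to 71.8 CPM in sham libraries. Pmvk, the next kinase, ranged from 65.5 to 95.4 CPM with scopolamine and from 48.8 to 99.1 CPM in sham libraries. In all of these the groups overlapped, and the sham libraries spread more widely than the scopolamine libraries for Mvk and Pmvk but not for Acat2. Mvd, which decarboxylates the diphosphate to isopentenyl diphosphate, ranged from 60.0 to 76.9 CPM with scopolamine and from 34.1 to 66.2 CPM in sham libraries, the low value being that of sham replicate 1; its log2 fold change of 0.29 (SE 0.23) became 0.07 without the sham libraries of lower input and 0.56 with the letter of the mouse ID as a covariate. Idi1, the isomerase that supplies dimethylallyl diphosphate, ranged from 50.6 to 83.2 CPM with scopolamine and from 51.0 to 62.8 CPM in sham libraries, with a log2 fold change of 0.18 (SE 0.21).

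The 4 genes of prenyl diphosphates and squalene included some of the steadiest and some of the most variable members. Fdps, which makes farnesyl diphosphate, was at 492, 442, 592 and 481 CPM with scopolamine and at 510, 570, 535 and 525 CPM in the sham libraries. The 8 libraries lay within a 1.34-fold range and the groups overlapped, scopolamine replicate 3 being the highest and replicate 2 the lowest. Fdps had a log2 fold change of −0.09 (SE 0.13, edgeR adjusted p = 0.934), with a 95% interval from −0.38 to 0.20.

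Ggps1, which extends farnesyl to geranylgeranyl diphosphate and so leads away from sterols, was at 15.7, 8.44, 14.3 and 35.5 CPM with scopolamine and ranged from 16.8 to 31.7 CPM in the sham libraries. Scopolamine replicates 1, 2 and 3 lay below every sham library, and scopolamine replicate 4 lay above every one of them. Its log2 fold change of −0.43 (SE 0.44, edgeR adjusted p = 0.903) was the lowest of the 28 and became −0.97 without scopolamine replicate 4 and −0.01 with the letter of the mouse ID as a covariate. Fdft1, the squalene synthase, ranged from 189 to 285 CPM with scopolamine and from 206 to 342 CPM in sham libraries, and Sqle, the epoxidase whose product is closed into lanosterol, from 97.7 to 140 CPM with scopolamine and from 93.0 to 169 CPM in sham libraries; in both, the highest value was that of sham replicate 3.

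Of the 9 enzymes from lanosterol to cholesterol, 5 had a positive and 4 a negative log2 fold change, with a median of 0.05. Lss, the cyclase that forms lanosterol, was at 38.8, 49.4, 34.1 and 36.2 CPM with scopolamine and at 24.6, 24.8, 25.1 and 37.1 CPM in the sham libraries. Sham replicate 4 fell inside the scopolamine range, and the other 3 sham libraries lay together below it. With a log2 fold change of 0.51 (SE 0.24, edgeR adjusted p = 0.812), Lss had a 95% interval from −0.02 to 1.03.

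Dhcr7, the reductase of 7-dehydrocholesterol that ends the Kandutsch-Russell branch, was at 30.6, 60.7, 29.2 and 50.9 CPM with scopolamine and at 32.7, 35.5, 22.9 and 31.5 CPM in the sham libraries. Scopolamine replicates 2 and 4 lay above every sham library, as for Insig1, whereas replicates 1 and 3 lay within the sham range. For Dhcr7 this gave a log2 fold change of 0.48 (SE 0.29, edgeR adjusted p = 0.827). Sc5d, the desaturase that precedes it, was at 37.1, 51.2, 45.1 and 40.7 CPM with scopolamine and at 49.4, 26.1, 23.7 and 35.6 CPM in the sham libraries. In this gene sham replicate 1 alone reached into the scopolamine range, and the log2 fold change was 0.37 (SE 0.27, edgeR adjusted p = 0.860).

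Cyp51, the lanosterol demethylase, was at 98.2, 95.6, 129 and 152 CPM with scopolamine and at 93.4, 100, 198 and 98.0 CPM in the sham libraries. Sham replicate 3 stood well above its group. The other 3 sham libraries were close together near the lower end of the scopolamine range, with sham replicate 1 just below it. Its log2 fold change was −0.05 (SE 0.27) and turned to 0.23 without the libraries of lower input. Msmo1, the oxidase of the C4 methyl groups, ranged from 98.0 to 130 CPM with scopolamine and from 95.6 to 197 CPM in sham libraries. As for Cyp51, sham replicate 3 was the highest. The log2 fold change of Msmo1 was −0.17 (SE 0.23) and turned to 0.12 without the libraries of lower input.

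Nsdhl, the C4 decarboxylating dehydrogenase, ranged from 31.9 to 42.0 CPM with scopolamine and from 32.8 to 51.8 CPM in sham libraries. Ebp, the sterol isomerase, ranged from 88.8 to 107 CPM with scopolamine and from 83.7 to 114 CPM in sham libraries, with a log2 fold change of 0.05 (SE 0.16). Tm7sf2, a C14 sterol reductase, ranged from 59.6 to 72.3 CPM with scopolamine and from 53.1 to 88.3 CPM in sham libraries. All of these overlapped between the groups, and the log2 fold change of Tm7sf2 was −0.04 and that of Nsdhl was −0.17. Hsd17b7, the 3-ketosterol reductase, was the most variable enzyme, at 40.3, 13.6, 17.9 and 9.19 CPM with scopolamine and at 31.4, 13.3, 7.34 and 20.3 CPM in the sham libraries. Its high values came from replicate 1 of each group, the libraries made from 3000 sorted cells, and the part of cell number in this was not tested. Its log2 fold change of 0.16 (SE 0.54) had a 95% interval from −1.04 to 1.37.

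In sterol handling, Npc2, the soluble protein that hands cholesterol to the lysosomal membrane, was at 87.7, 87.4, 98.9 and 83.6 CPM with scopolamine and at 114, 108, 102 and 103 CPM in the sham libraries. Every scopolamine library lay below every sham library, which was the case for 1 of the 28 members, against 1.95% of all genes tested; the reverse order held for 0 members, against 1.92% of all genes. The difference was small, with a log2 fold change of −0.26 (SE 0.14, 95% interval −0.57 to 0.05, edgeR adjusted p = 0.815), and with libraries scaled by their totals alone the groups of this gene overlapped. Npc1, the membrane protein that receives the cholesterol from NPC2, ranged from 11.7 to 22.6 CPM with scopolamine and from 13.6 to 27.8 CPM in sham libraries, with a log2 fold change of −0.11 (SE 0.34) that turned to 0.22 without the libraries of lower input.

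Stard4, a cytosolic sterol carrier, was at 17.9, 40.7, 23.9 and 43.1 CPM with scopolamine and ranged from 10.3 to 33.1 CPM in the sham libraries. Scopolamine replicates 2 and 4 were again above every sham library, and replicates 1 and 3 lay within the sham range. Its log2 fold change of 0.53 (SE 0.41, edgeR adjusted p = 0.869) became 1.09 with the letter of the mouse ID as a covariate. Mylip, the ubiquitin ligase that marks lipoprotein receptors for degradation, varied 241-fold in CPM over the libraries. It had 68, 79, 15 and 71 counts with scopolamine and 12, 246, 1 and 72 counts in the sham libraries. The libraries of lower input held the fewest counts of the sham group, and the 95% interval, from −2.18 to 3.02, does not bound a change of this gene.

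**Figure D2:**
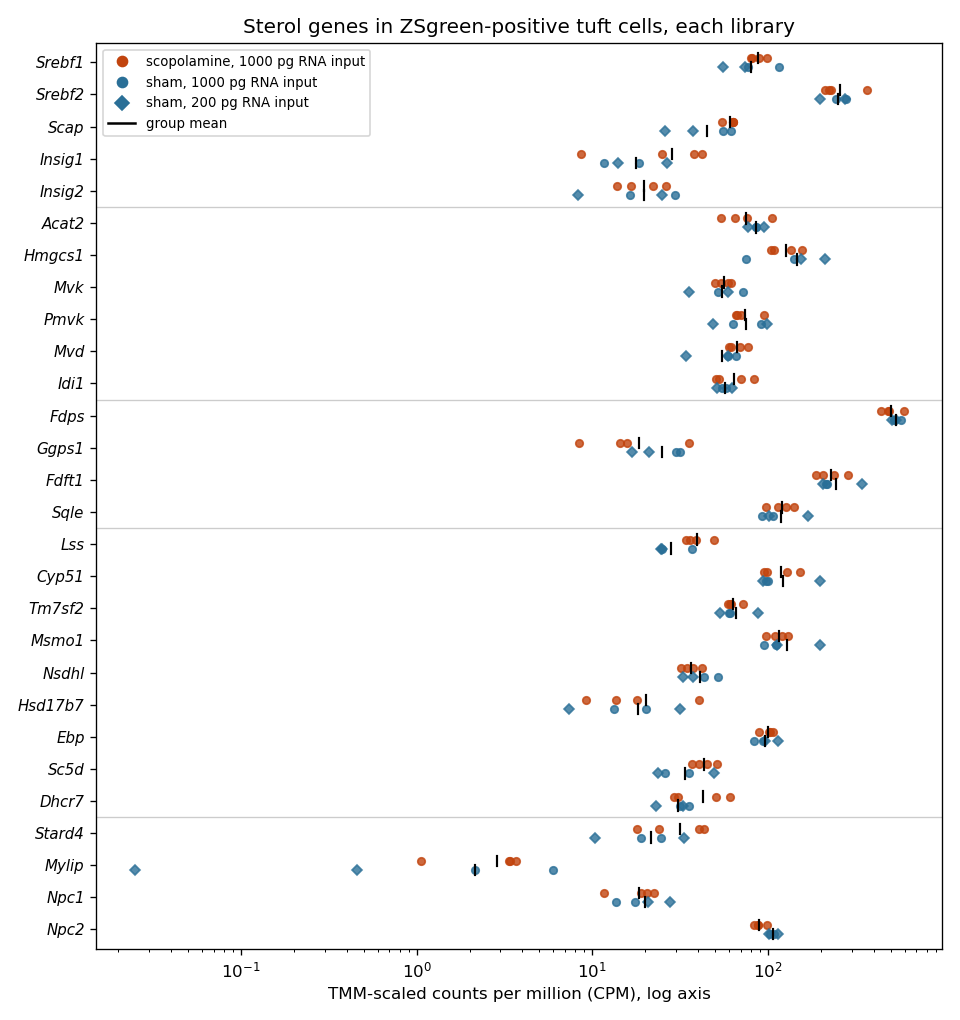
TMM-scaled CPM of the 28 sterol genes in each library, on a log axis; orange circles are the 4 scopolamine libraries, blue symbols the 4 sham libraries (diamonds for 200 pg of RNA input, circles for 1000 pg) and black ticks the group means. The groups overlap for 27 of the 28 genes, Npc2 being the exception.

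Levels of different genes were compared as mean CPM per kilobase of annotated exon over the 8 libraries. On this scale, Fdps was the highest of the 28 at 123 CPM per kilobase, at percentile 95.9 of the tested genes with a length, and its lowest library lay above the highest library of the next gene. Fdft1 followed at 56.1, Pmvk at 43.8, Ebp at 42.6 and Srebf2 at 35.2 CPM per kilobase, and these neighbours overlapped between libraries. Srebf1, at 14.9 CPM per kilobase, was below Srebf2, its highest library at 20.6 lying under the lowest library of Srebf2 at 27.6. Further down, Nsdhl at 13.6 and Sc5d at 7.94 CPM per kilobase were neighbours, every library of the first lying above every library of the second, but this is no gap between sets, since Insig1, ranked after Sc5d, reached 13.5 in its highest library, above the lowest library of Nsdhl at 11.2. Lss at 3.13, Npc1 at 1.70 and Mylip at 0.779 CPM per kilobase were the lowest. The length used is that of all annotated exons of a gene together, which for Lss is 10787 bases, so a gene with long or rarely used exons has a lower value on this scale.

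Steadiness within groups did not follow the level alone. The within-group SD of log2 CPM was lowest for Npc2, at 0.09, Fdps, at 0.13, and Ebp, at 0.15, and highest for Mylip, at 1.23, Hsd17b7, at 0.87, and Insig1, at 0.80. Insig1, Hsd17b7 and Ggps1 varied 4.86-, 5.48- and 4.20-fold over the 8 libraries, against 1.34-fold for Fdps.

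The 19 enzymes were also compared library by library. Their summed level was 1910 ± 161 CPM with scopolamine and 1960 ± 222 CPM in sham libraries (mean ± SD, n = 4 mice each). The median of their log2 fold changes was −0.02, with 9 positive and 10 negative, and it moved to 0.12 without the sham libraries of lower input. Sham replicate 3, which is of lower input, held the highest value of 7 enzymes (Hmgcs1, Pmvk, Fdft1, Sqle, Cyp51, Msmo1 and Ebp) and the lowest value of 5 others (Mvk, Tm7sf2, Hsd17b7, Sc5d and Dhcr7); over all genes tested, this library was the highest for 18.4% and the lowest for 20.9%. Scopolamine replicate 3, the shallowest library, held the highest value of Mvd, Idi1 and Fdps and the lowest of 0 enzymes, while it was the highest for 12.5% and the lowest for 14.3% of all genes, with a median deviation of 0.18 on the log2 scale from each enzyme's median over the libraries. Sham replicate 1, also of lower input, held the lowest value of Pmvk, Mvd, Lss and Cyp51 and the highest of Tm7sf2, while it was the lowest for 14% and the highest for 13.4% of all genes. The part of input and depth in these patterns was not tested.

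**Figure D3:**
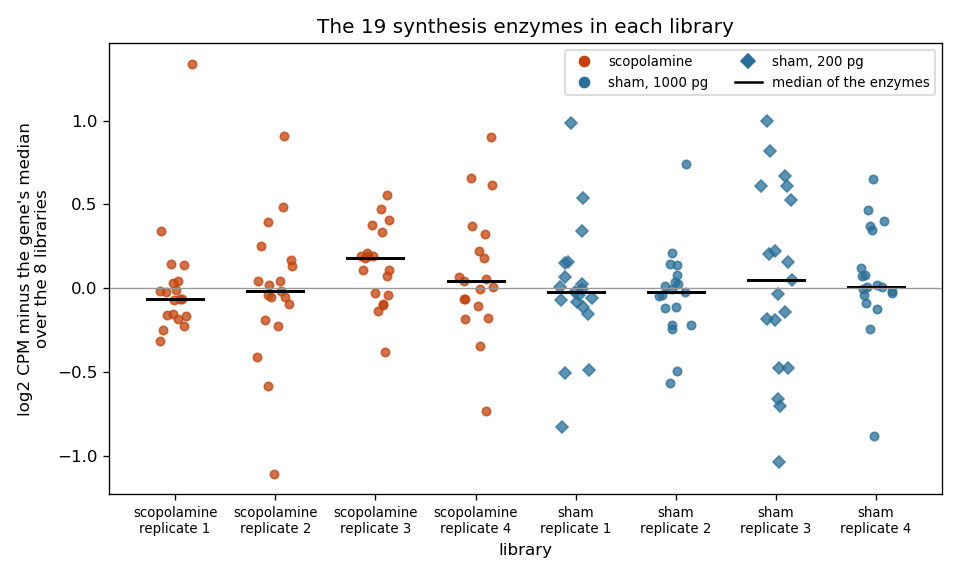
Log2 CPM of each of the 19 synthesis enzymes minus that gene's median over the 8 libraries (vertical axis), by library; each point is an enzyme, black lines are medians over the enzymes, and diamonds mark the sham libraries made from 200 pg of RNA. The medians of both groups lie near 0, and the points of sham replicate 3 spread to both sides.

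Markers of other intestinal cells were present in every library and their mean summed CPM was higher with scopolamine for all 6 lists of other cells, with overlap between the groups in each. The 23 enterocyte markers all had a positive log2 fold change. At an unadjusted p under 0.05, edgeR had 10 of them higher, against 3.33% of all genes tested. It and limma-voom called 0 of the 23, and DESeq2 called Slc5a1 and Anpep. The 23 markers summed to 3730, 8580, 7040 and 4830 CPM with scopolamine and to 7460, 2850, 3050 and 2820 CPM in the sham libraries. Their most abundant gene was Fabp1, the fatty acid carrier, at 2130 to 4590 CPM with scopolamine and 2280 to 5280 CPM in sham libraries, and none of the 23 was at 0 in all libraries. The 20 goblet and Paneth cell markers, led by Reg3g, an antimicrobial lectin, summed to 4030, 3950, 1410 and 7410 CPM with scopolamine and to 2320, 739, 2080 and 603 CPM in the sham libraries, and 18 of them had a positive log2 fold change. The 26 tuft markers, led by Krt18, a keratin shared by several epithelial cells, summed to 47800 ± 11800 CPM with scopolamine and 51600 ± 3410 CPM in sham libraries. Of these, 21 had a negative and 5 a positive log2 fold change, with a median of −0.15. At an unadjusted p under 0.05, edgeR had 2 lower, against 2.66% of all genes tested, and 0 higher, against 3.33%. It and limma-voom called 0 of the 26, and DESeq2 called 1, which was lower. What part RNA of other cells had in the values of the sterol genes was not tested.

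Enteroendocrine markers, led by Sct, the secretin gene, summed to 498, 1040, 526 and 1150 CPM with scopolamine and to 307, 183, 1590 and 300 CPM in the sham libraries, sham replicate 3 lying above all others. Of 18 tested, 15 had a positive log2 fold change, with a median of 1.61. At an unadjusted p under 0.05, edgeR had 2 higher, against 3.33% of all genes tested, and 0 lower, against 2.66%. It and limma-voom called 0 of the 18, and DESeq2 called 2, both higher. Stem and cycling markers, led by Slc12a2, an ion cotransporter, summed to 454 ± 136 and 407 ± 70.7 CPM, immune markers, led by Cd74, the invariant chain, to 566 ± 306 and 258 ± 156 CPM, and markers of stroma, endothelium and nerve, led by Pecam1, to 20.9 ± 6.34 and 17.9 ± 1.33 CPM, in the same order of groups. At an unadjusted p under 0.05, edgeR had 4 goblet and Paneth, 3 stem and cycling, 2 immune and 0 stroma, endothelium and nerve markers higher. It had 0 lower in each of these lists. At this threshold, 3.33% of all genes tested were higher and 2.66% lower. Both edgeR and limma-voom called 0 of these markers. DESeq2 called 1 stem and cycling marker, which was higher, and 0 of the other 3 lists. Of the stroma, endothelium and nerve list, Sox10 was at 0 in all libraries.

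Other genes of the same pathways were read from the same fit, and edgeR and limma-voom called 0 of them in each list, whereas DESeq2 called Nfya and Abcg5. Among genes of sterol and ketone body synthesis outside the 28, Acat1 was higher at an unadjusted p under 0.05. Over all genes tested, 3.33% were higher at this threshold. Acat1, the mitochondrial thiolase of ketone body metabolism, was at 55.2, 94.3, 72.1 and 84.1 CPM with scopolamine and at 49.5, 56.3, 45.9 and 46.7 CPM in the sham libraries, overlapping between the groups through scopolamine replicate 1 and sham replicate 2; its log2 fold change was 0.62 (SE 0.20, edgeR adjusted p = 0.812).

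Of 18 genes of SREBP processing and sterol sensing, 1 was higher and 0 were lower at the unadjusted threshold. Over all genes tested, 3.33% were higher and 2.66% lower, and the median log2 fold change of the list was 0.13. The gene that was higher was Nfya, a subunit of the factor that binds CCAAT boxes. It was at 5.22, 3.89, 5.72 and 7.25 CPM with scopolamine and at 1.93, 3.19, 1.51 and 1.76 CPM in the sham libraries. Every scopolamine library lay above every sham library, at low counts, as for 2 genes of the list and 1.92% of all genes tested. The log2 fold change of Nfya was 1.39 (SE 0.62). The adjusted p was 0.812 with edgeR and 0.0605 with DESeq2, and over 18 alternative settings, DESeq2 included, it ranged from 0.0605 to 0.999. Nfyb and Nfyc, which encode the other subunits, had log2 fold changes of 0.04 and 0.11; they were chosen for mention after their values were seen. The most abundant gene of the list by CPM was Nr1h2, the oxysterol receptor LXR beta, with a log2 fold change of 0.14 (SE 0.17).

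Of 28 tested genes of sterol uptake, transport, storage and efflux, 3 were higher and 0 were lower at the unadjusted threshold. Over all genes tested, 3.33% were higher and 2.66% lower, and the median log2 fold change of the list was 0.20. Every scopolamine library lay above every sham library for 2 genes of the list, against 1.92% of all genes tested. Abcg5, a subunit of the transporter that returns sterols to the lumen, was at 11.8, 22.1, 25.1 and 25.9 CPM with scopolamine and at 11.2, 7.77, 10.9 and 9.89 CPM in the sham libraries, above every sham library in each scopolamine library though barely so in replicate 1. The log2 fold change was 1.09 (SE 0.36), and the adjusted p was 0.812 with edgeR and 0.0545 with DESeq2, and from 0.0545 to 0.999 over the 18 alternative settings. Npc1l1, the protein by which enterocytes absorb cholesterol, was at 18.3, 95.7, 30.9 and 52.6 CPM with scopolamine and at 30.8, 22.2, 3.32 and 2.54 CPM in the sham libraries, with overlap between the groups (log2 fold change 1.75, SE 0.79, edgeR adjusted p = 0.812). Its highest value in each group was in the library with the highest sum of enterocyte markers, scopolamine replicate 2 and sham replicate 1, and the part of enterocyte RNA in this difference was not tested. Tmem41b, a scramblase of the endoplasmic reticulum, ranged from 43.2 to 58.7 CPM with scopolamine and from 32.5 to 40.1 CPM in sham libraries, with no overlap (log2 fold change 0.45, SE 0.19, edgeR adjusted p = 0.812). The most abundant of the list by CPM was Scp2, a sterol carrier of peroxisomes, with a log2 fold change of −0.09 (SE 0.15).

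The promoters of the sterol genes were searched for the letters of elements known for sterol control, to show what the members share beyond their function. RefSeq promoter sequences on GRCm38.p6, from 250 bases before to 50 bases after the start of a gene, were matched to 23 of the 28 members; Fdps, Fdft1, Sqle, Stard4 and Npc1 were not matched. CCAAT, on either strand (ATTGG on the reverse), is bound by the factor NF-Y, which is known to act beside SREBP2. It occurred in 21 of the 23 members (91.3%), all but Scap and Acat2, against 41.1% of the 27025 genes of the table, 37.4% of its 32851 promoters and 43.3% of 9707 protein-coding genes tested here. Within the last 100 bases before the start, it occurred in 18 of the 23 members (78.3%), against 26.1% of those 9707 genes. CACGTG, an E-box that SREBP1 can also bind, occurred in 5 of 23 members (21.7%), against 8.09% of the genes of the table and 11.4% of the 9707 genes tested, and within the last 100 bases in 2 of 23 (8.7%), against 5.4%. TCACNCCAC, searched on both strands as the classical sterol regulatory element and sharing no letters with the CCAAT matches shown, occurred in 1 of 23, Hmgcs1, against 1.44% of the genes of the table and 1.41% of the 9707 genes tested, and within the last 100 bases in 0 of 23, against 0.494%. These are matches of letters within the promoter sequences described. Other forms of these elements and bases further away were not searched, and binding was not measured here.

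The windows below are the last 80 bases before the start of enzyme genes, with CCAAT or its reverse in capitals. From each of the 3 groups of enzymes described above, the first 2 in pathway order were taken whose window holds these letters and lies outside the span of the gene in both RefSeq and GENCODE, which left 0 from the group of prenyl diphosphates and squalene. The RNA of the enzymes shown did not pass the test for a change. The windows were picked for holding these letters, so they show only the place of the letters. They lie at chr13:119690271-119690350 on the plus strand for Hmgcs1, chr8:122443423-122443502 on the minus strand for Mvd, chrX:72918441-72918520 on the plus strand for Nsdhl and chrX:8193513-8193592 on the minus strand for Ebp, each outside the annotated transcripts of its gene and written 5′ to 3′ on that gene's strand.
Hmgcs1: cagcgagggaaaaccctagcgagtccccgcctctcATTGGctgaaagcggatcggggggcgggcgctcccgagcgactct
Mvd: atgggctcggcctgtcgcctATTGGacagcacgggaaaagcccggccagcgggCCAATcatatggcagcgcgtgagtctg
Nsdhl: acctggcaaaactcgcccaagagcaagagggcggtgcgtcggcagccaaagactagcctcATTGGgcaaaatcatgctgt
Ebp: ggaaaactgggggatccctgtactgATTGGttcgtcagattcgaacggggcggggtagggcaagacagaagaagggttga

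The sterol regulatory element match of Hmgcs1 lies further from the start. It is shown in capitals in the last 150 bases before it, chr13:119690201-119690350 on the plus strand, and the ATTGG of the shorter window is here in lower case.
Hmgcs1: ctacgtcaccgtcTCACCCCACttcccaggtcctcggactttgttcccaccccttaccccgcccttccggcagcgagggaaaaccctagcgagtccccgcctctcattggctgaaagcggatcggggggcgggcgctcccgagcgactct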

How the data were processed

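RNA of ZSgreen-positive cells from 8 mice, 4 per treatment, was sequenced by the study in 8 libraries. The authors used bcl2fastq 2.20 and, against GRCm38, kallisto 0.44.0 with tximport; the deposited values are estimated counts of each gene that were not normalized, and rounding them changed 0 values. Neither the release of the annotation nor whether strand was used is known, so a gene lying over another (Srebf1 and Rai1, Fdft1 and Ctsb, Cyp51 and Akap9, Ggps1 and Arid4b, Tm7sf2 and Vps51, Npc1 and Rmc1, Fdps and Gm43738, Mvd and Gm20388) may hold some of its reads. The labels gave treatment; the source data of the study gave RNA input, cycles and mouse IDs, whose letter is not explained.

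Testing used edgeR 4.0.16 in R 4.3.3: TMM scaling, filterByExpr by group, the quasi-likelihood test, and Benjamini-Hochberg adjustment over the 12849 genes left, with 0.1 as the limit. This procedure was tested on simulated data. Intervals are 95% intervals of the fitted log2 fold change. Exon lengths are those of GENCODE M21. As alternatives, the tool was changed to DESeq2 1.42.0 or to limma-voom (limma 3.58.1), the scaling to size factors of DESeq2 or to totals alone, the filter to none or to 10 counts or more in each library, and the limit to 0.05. The DESeq2 run took all 21805 genes with a count, with its own scaling and filter. Further fits dropped the sham libraries of lower input, dropped single libraries, added cycles or the mouse ID letter as a covariate, or thinned all libraries to the smallest total. The floor of 3 counts is 0.0724 to 0.209 CPM, depending on the library. Libraries of the same group differed by more than sampling noise in every pair, with a chi-square per degree of freedom of at least 72.7.

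Named genes are the members, Dclk1, Trpm5 and Pou2f3, the most abundant gene of each other list or marker list, and up to 4 genes of each other list with an unadjusted p under 0.05; some genes this rule names are not reported here. The members and lists were chosen with earlier results of these data known.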

Additional observations from a re-analysis of the deposited data

Results flagged for a closer look

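In 10 of 60 groups of 4 libraries examined (each gene, the total count and the summed enzyme level in each treatment), the highest or lowest library stood far from the rest, its gap to the nearest library taking up more than 0.829 of the whole range of the group. Chance gives this in about 1 in 20 groups. Genes of the same library are not independent, so libraries that stand apart recur.

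In scopolamine replicate 3, Srebf2 was high at 366 CPM and Pmvk was high at 95.4 CPM, Mylip was low at 1.06 CPM, and the total count was low at 14343362. In sham replicate 3, a library of lower RNA input, Fdft1 was high at 342 CPM, Cyp51 at 198 CPM and Msmo1 at 197 CPM, and the summed level of the 19 enzymes was high at 2290 CPM. Scap was low in scopolamine replicate 1 at 54.5 CPM, the other 3 scopolamine libraries being within 63.4 to 63.6 CPM. Lss was high in sham replicate 4 at 37.1 CPM.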

How the results depend on the processing

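The count of members called was 0 under every alternative run. Genes called over the whole table numbered 190 with DESeq2, 9 without the sham libraries of lower input, 5 with amplification cycles as a covariate, and 0 to 2 leaving out each library in turn. Members higher at an unadjusted p under 0.05 numbered 1 with library size only, DESeq2, limma-voom and thinning (Lss each time) and with the mouse ID letter (Stard4), and 0 to 1 leaving out each library (Insig1 without scopolamine replicate 3, Sc5d, Scap and Lss without sham replicates 1, 2 and 4). Members lower numbered 1 with DESeq2 (Npc2), and 0 to 1 leaving out each library (Ggps1 without scopolamine replicate 4). The enzyme median became 0.12 without the libraries of lower input and 0.15 with the cycle covariate, and −0.062 to 0.11 leaving out each library. Members without overlap between groups numbered 0 with library size only (3.81% of all genes), 3 without the libraries of lower input (Nsdhl, Sc5d and Npc2, where 18.3% of all genes did not overlap), and 1 to 3 leaving out each library (5.81% to 10.2% of all genes). Fewer libraries make such a gap more frequent. Of the members, 13 kept their sign in all settings run for them and 15 did not in at least 1; the cause of these changes was not tested.

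Signs turned, without the libraries of lower input and with the cycle covariate respectively, for Srebf1 (−0.16, −0.14), Srebf2 (−0.038, −0.016), Insig2 (−0.24, −0.21), Hmgcs1 (0.21, 0.23), Mvk (−0.17, −0.14), Fdft1 (0.069, 0.094), Cyp51 (0.23, 0.26), Tm7sf2 (0.05, 0.075), Msmo1 (0.12, 0.15), Mylip (−0.51, −0.50) and Npc1 (0.22, 0.24). With the mouse ID letter they turned for Mvk (−0.016), Pmvk (0.15), Sqle (−0.006), Cyp51 (0.20) and Hsd17b7 (−0.48). Turns also came for Srebf2 (−0.002) and Tm7sf2 (0.01) with limma-voom, Insig2 (−0.037) and Sqle (−0.004) with no filter, Insig2 (−0.001) with thinning and Pmvk (0.016) with library size only.

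Leaving out each library in turn, the log2 fold change ran from −0.037 to 0.34 for Srebf1, −0.17 to 0.13 for Srebf2, −0.27 to 0.26 for Insig2, −0.42 to 0.035 for Hmgcs1, −0.12 to 0.20 for Mvk, −0.19 to 0.14 for Pmvk, −0.22 to 0.11 for Fdft1, −0.075 to 0.25 for Sqle, −0.19 to 0.29 for Cyp51, −0.13 to 0.12 for Tm7sf2, −0.29 to 0.11 for Msmo1, −0.42 to 0.55 for Hsd17b7, −0.018 to 0.13 for Ebp and −0.26 to 0.092 for Npc1. For members whose sign held in these fits it ran from 0.43 to 0.99 for Insig1, 0.25 to 0.63 for Scap, −0.41 to −0.077 for Acat2, 0.10 to 0.39 for Mvd, 0.031 to 0.28 for Idi1, −0.18 to −0.046 for Fdps, −0.97 to −0.20 for Ggps1, 0.37 to 0.68 for Lss, −0.27 to −0.046 for Nsdhl, 0.23 to 0.60 for Sc5d, 0.26 to 0.63 for Dhcr7, 0.29 to 0.81 for Stard4, −0.31 to −0.23 for Npc2 and 0.007 to 1.71 for Mylip. Over the settings that left out no single library, the 13 members that kept their sign ran from 0.038 to 0.55 for Scap, 0.66 to 0.91 for Insig1, −0.24 to −0.002 for Acat2, 0.066 to 0.56 for Mvd, 0.14 to 0.21 for Idi1, −0.15 to −0.063 for Fdps, −0.76 to −0.01 for Ggps1, 0.33 to 0.56 for Lss, −0.41 to −0.11 for Nsdhl, 0.18 to 0.50 for Sc5d, 0.33 to 0.53 for Dhcr7, 0.50 to 1.09 for Stard4 and −0.32 to −0.22 for Npc2. Mylip was not fitted with at least 10 counts in every library. Thinning every library to 14343362 counts called 0 genes.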

Other observations

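Further branches that leave or feed the sterol route were read from the same edgeR fit, in which 0 genes of these lists were called at an adjusted p under 0.1, as with DESeq2 and limma-voom. Of 17 genes of the isoprenoid branch, 11 had a positive and 6 a negative log2 fold change, with a median of 0.04. At an unadjusted p under 0.05, 1 was higher, against 3.33% of all genes tested, and 0 were lower, against 2.66%. The gene that was higher was Pdss1, which builds the side chain of ubiquinone. It was at 8.58, 27.9, 15.3 and 43.5 CPM with scopolamine and at 9.74, 11.7, 3.45 and 6.81 CPM in the sham libraries. Scopolamine replicate 1 lay within the sham range and the other 3 scopolamine libraries lay above it, and the log2 fold change was 1.59 (SE 0.56, edgeR adjusted p = 0.812). The most abundant gene of the list by CPM was Fnta, the shared subunit of the farnesyl and geranylgeranyl transferases, with a log2 fold change of 0.06 (SE 0.23).

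Of 5 tested genes of oxysterol and bile acid synthesis, 0 passed the unadjusted threshold, 1 had a positive and 4 had a negative log2 fold change; the most abundant by CPM was Hsd3b7, a dehydrogenase of bile acid synthesis, with a log2 fold change of −0.26 (SE 0.29). Of 19 tested genes of fatty acid synthesis under SREBP1, 12 were positive and 7 negative, with a median of 0.04. At the unadjusted threshold, 1 was higher, against 3.33% of all genes tested, and 0 were lower, against 2.66%. Fads2, a desaturase of polyunsaturated fatty acids, was at 3.26, 54.9, 13.5 and 33.4 CPM with scopolamine and from 6.99 to 12.8 CPM in the sham libraries. Its scopolamine libraries held both its lowest and its highest value, and the log2 fold change was 1.53 (SE 0.68, edgeR adjusted p = 0.812). Elovl1, a fatty acid elongase and the most abundant of the list by CPM, had a log2 fold change of 0.00 (SE 0.16).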
